A study of Rattus with 6 samples.

Results

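Smooth muscle contractile genes serve contraction in smooth muscle, and cultured fibroblasts switch on some of them as they turn into myofibroblasts. Here 10 such genes were followed after knockdown of NONO in rat cardiac fibroblasts. The members were chosen by symbol: the actins Acta2 and Actg2, the actin-binding proteins Tagln, Cnn1, Lmod1 and Smtn, the myosin genes Myh11, Myl9 and Mylk, and the intermediate filament gene Des. All 10 were among the 21378 genes with deposited counts, each with 1 entry, and all 10 passed the filter on low counts that left 14412 genes for testing. Cultured rat cardiac fibroblasts, described in the labels as a cell line from a commercial supplier, made up 6 libraries. In 3 libraries, titled siNONO, the cells had received, by Lipofectamine, an siRNA that targets the gene of NONO, a nuclear RNA- and DNA-binding protein. The other 3 are siCtrl by title but empty-vector cells by description, and the labels leave that difference unresolved. A harvest at 48 h is stated for the RT-qPCR and protein work, with none stated for sequencing.

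In smooth muscle and in myofibroblasts, bundles of smooth muscle actin slide on myosin filaments once myosin light chain kinase has phosphorylated the regulatory light chain. Calponin, transgelin, leiomodin and smoothelin bind or build the actin filaments, and desmin forms the intermediate filaments around them. Many of these genes are known targets of the transcription factor SRF, which works with the coactivators MRTF-A, MRTF-B and, in smooth muscle, myocardin. In the heart, smooth muscle actin is the usual marker of the fibroblast that has become a contractile, scar-forming myofibroblast.

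Knockdown was visible in Nono itself, which had 69.8, 76.1 and 73.6 CPM (read counts relative to the TMM-scaled library total) in siNONO libraries 1, 2 and 3, against 236, 233 and 246 CPM in siCtrl libraries 1, 2 and 3. The siNONO libraries held 30.7% of the siCtrl level (log2 fold change -1.70 ± 0.05, SE; edgeR adjusted p = 4.57e-11). Totals ranged from 27792357 to 33365588 counts per library. Fibroblast markers such as Col1a1 and Pdgfra were abundant, with a summed level over 10 genes of 33780 to 34656 CPM in siNONO and 34627 to 37209 CPM in siCtrl, most of it from the collagen genes Col1a1, Col1a2 and Col3a1. Of these 10 markers 4 were lowered, the proteoglycan genes Lum (log2 fold change -0.91) and Dcn (-0.32) most, and 1 was raised. By the same test 15.9% of all tested genes were lowered and 16.2% raised. The labels do not say whether replicates were separate cultures, so p-values measure the spread between these libraries, which may be technical. In a culture read in bulk, fewer cells of a contractile type and less RNA per cell cannot be told apart.

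Most of the contractile genes were lower after knockdown, by differing amounts. Of the 10 members, 8 were lowered, 1 was raised (Des) and 1 did not pass (Smtn), by the quasi-likelihood test of edgeR at a threshold of 0.05 for p adjusted over all genes (Benjamini-Hochberg). In the same comparison 32.1% of all 14412 tested genes were called, 15.9% lowered and 16.2% raised. With scaling by total library size 65.5% of all called genes were raised, against 50.5% with TMM, and 7 members were then lowered and 1 raised. The median log2 fold change of the 10 members was -0.83, beside 0.00 over all tested genes. For 9 of the 10 the values of the groups did not overlap, as was so for 45.0% of all tested genes. The members together took 0.119%, 0.111% and 0.116% of all counts in siNONO libraries 1, 2 and 3, against 0.193%, 0.197% and 0.191% in siCtrl libraries 1, 2 and 3.

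Per length, the contractile genes spanned a wide range of levels in both groups. The deposited FPKM values (per kilobase of gene length and library size) placed Tagln highest, at 408 ± 10.7 FPKM in siNONO and 679 ± 33.4 FPKM in siCtrl (SD, n = 3 each). Acta2 followed with 251 ± 9.26 FPKM in siNONO and 495 ± 16.5 FPKM in siCtrl, and Myl9 with 136 ± 3.59 FPKM in siNONO and 200.2 ± 6.89 FPKM in siCtrl. These 3 genes made up 89.7% ± 0.393 of the members' counts in siNONO and 93.0% ± 0.422 in siCtrl. The next genes in siCtrl were Mylk (8.31 ± 0.552 FPKM), Smtn (5.10 ± 0.351), Lmod1 (3.35 ± 0.283), Cnn1 (2.38 ± 0.166) and Des (2.09 ± 0.0608), with Myh11 (0.753 ± 0.110) and Actg2 (0.407 ± 0.131) lowest. The order in siNONO was the same except for Des, which stood in place 6 of 10 by mean FPKM there and in place 8 in siCtrl. In neither group did the FPKM values of genes adjacent in that order overlap. Classical late smooth muscle genes such as Myh11, Cnn1 and Actg2 were thus measured at low levels, while Acta2 ranked 296 in siNONO and 180 in siCtrl among the 21081 genes with an FPKM value.

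**Figure D1:**
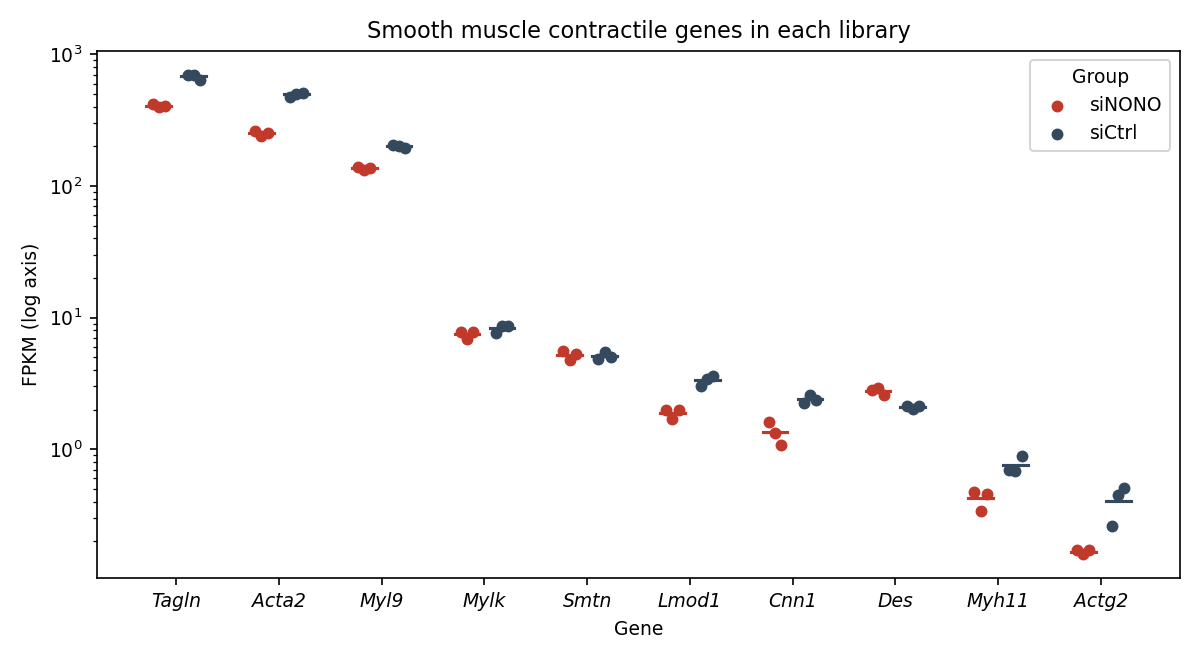
FPKM of each contractile gene (log axis) in the 3 siNONO libraries and, to their right, the 3 siCtrl libraries; points are libraries and lines are group means. Acta2 had a mean of 251 FPKM in siNONO and 495 FPKM in siCtrl, whereas the values of Smtn and Mylk overlapped between groups on this scale.

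Acta2 (gene-Acta2, chromosome 1), the smooth muscle alpha-actin, fell in all siNONO libraries. It had 390, 367 and 380.4 CPM in siNONO libraries 1, 2 and 3, against 758, 771 and 793 CPM in siCtrl libraries 1, 2 and 3. The groups lay far apart relative to their spread, and the siNONO libraries held 49.0% of the siCtrl level (log2 fold change -1.03 ± 0.04; edgeR adjusted p = 1.27e-09). By p-value Acta2 ranked 10 among all tested genes. Actg2 (chromosome 4), the gamma-actin of visceral smooth muscle, was near the detection limit, with 8, 8 and 9 counts in siNONO libraries and 11, 20 and 26 counts in siCtrl libraries 1, 2 and 3. Its siCtrl libraries differed more among themselves than the siNONO libraries did. Its log2 fold change was -1.33 ± 0.35 (edgeR adjusted p = 0.0102), and leaving out siCtrl replicate 3 ended the call (-1.12, with an adjusted p of 0.0587). The coding sequences of the actin genes are very similar, and how the counting treated reads shared between them is not given in the sources used here. For every 1000 Acta2 counts there were 0.675, 0.656 and 0.693 Actg2 counts in siNONO libraries 1, 2 and 3, and 0.540, 0.912 and 1.01 in siCtrl libraries 1, 2 and 3, so the ratio of these genes overlapped between groups.

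Among the actin genes, smooth muscle actin held a smaller share of the transcripts after knockdown and the cytoplasmic actins a larger one. Acta2 made up 9.27%, 8.78% and 8.87% of the summed FPKM of the 6 actin genes in siNONO libraries 1, 2 and 3, against 16.7%, 17.03% and 17.8% in siCtrl libraries 1, 2 and 3. The groups did not overlap, and the mean share was lower in siNONO by 8.19 percentage points (difference -8.19; exact permutation p = 0.1, two-sided, which is the floor for groups of 3). Actb, cytoplasmic beta-actin, took 72.3% ± 0.610 in siNONO and 67.8% ± 0.929 in siCtrl. Its own level was close in both groups (log2 fold change 0.00 ± 0.04; edgeR adjusted p = 0.975). Actg1, cytoplasmic gamma-actin, took 18.7% ± 0.570 in siNONO and 15.0% ± 0.429 in siCtrl, and its own level rose (0.22 ± 0.04; edgeR adjusted p = 0.00161). The striated muscle actins were close to absent, with 2 to 7 Acta1 counts per siNONO library and 6 to 10 per siCtrl library. Actc1 had 0 counts in each siNONO library, which allows up to 0.101 CPM at these depths by counting error alone, and 0 to 2 counts per siCtrl library.

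**Figure D2:**
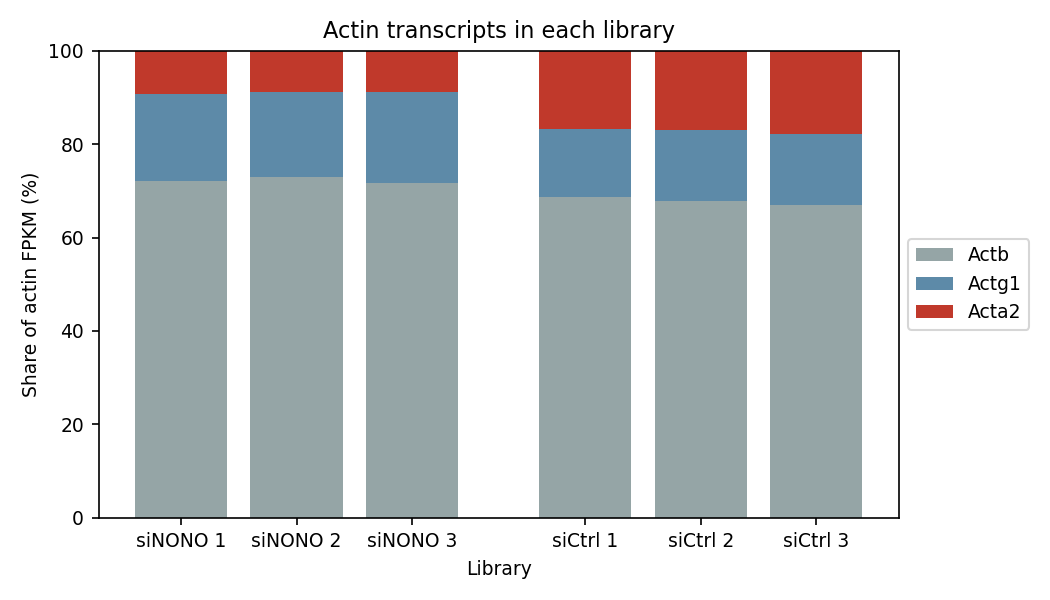
Share of summed actin FPKM (%) held by Actb, Actg1 and Acta2 in each library, siNONO on the left and siCtrl on the right; Acta1, Actc1 and Actg2 are too small to draw. Acta2 holds 8.78% to 9.27% in siNONO and 16.7% to 17.8% in siCtrl.

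The 4 genes for proteins that bind or build actin filaments divided into 3 that fell and 1 that did not pass. Tagln (chromosome 8), which encodes the actin cross-linker transgelin or SM22 alpha, had 475, 456 and 461 CPM in siNONO libraries 1, 2 and 3, against 837, 811 and 751 CPM in siCtrl libraries 1, 2 and 3. The siCtrl libraries were all higher than every siNONO library (log2 fold change -0.79 ± 0.05; edgeR adjusted p = 5.18e-08). Lmod1 (chromosome 13), leiomodin 1, which nucleates actin filaments in smooth muscle, had 8.42, 7.31 and 8.43 CPM in siNONO libraries, against 13.7, 15.0 and 15.8 CPM in siCtrl libraries 1, 2 and 3. Again the groups were separate (-0.88 ± 0.09; edgeR adjusted p = 4.28e-06). Cnn1 (chromosome 8), calponin 1, an inhibitor of actomyosin ATPase activity, had 2.53, 2.11 and 1.70 CPM in siNONO libraries 1, 2 and 3, against 3.68, 4.11 and 3.83 CPM in siCtrl libraries 1, 2 and 3. It rested on 58 to 77 counts per siNONO library and 99 to 124 per siCtrl library, and its error was wider (-0.88 ± 0.16; edgeR adjusted p = 0.000769).

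Smtn (chromosome 14), smoothelin, an actin-binding protein of contractile smooth muscle, was the member without a call. It had 31.8, 27.5 and 30.2 CPM in siNONO libraries 1, 2 and 3, against 29.1, 32.3 and 29.7 CPM in siCtrl libraries 1, 2 and 3, so that the groups overlapped. Its log2 fold change was -0.03 ± 0.06 (95% confidence interval -0.16 to 0.11; edgeR adjusted p = 0.793), and its sign differed between settings, from -0.08 to 0.03. The interval holds no change of the size seen in Tagln, Lmod1 or Cnn1. Gene-level counts do not separate the smooth muscle and other transcripts of Smtn.

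All 3 members of the myosin machinery fell, the kinase least. Myh11 (chromosome 10), the smooth muscle myosin heavy chain, had 3.59, 2.62 and 3.51 CPM in siNONO libraries 1, 2 and 3, against 5.58, 5.34 and 6.91 CPM in siCtrl libraries 1, 2 and 3. The groups were separate, with siCtrl library 3 the highest (log2 fold change -0.88 ± 0.15; edgeR adjusted p = 0.000416). Myl9 (chromosome 3), the regulatory light chain that the kinase phosphorylates, had 174, 167 and 170 CPM in siNONO libraries, against 272, 258 and 249 CPM in siCtrl libraries 1, 2 and 3. Every siNONO library lay below every siCtrl library (-0.61 ± 0.04; edgeR adjusted p = 2.95e-07). Mylk (chromosome 11), the gene of myosin light chain kinase, had 69.3, 62.0 and 69.6 CPM in siNONO libraries, against 71.9, 79.0 and 78.9 CPM in siCtrl libraries 1, 2 and 3. The groups were close but did not overlap in CPM, while in FPKM they did, with 7.83 in siNONO library 3 and 7.67 in siCtrl library 1.

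Mylk had a log2 fold change of -0.20 ± 0.06 (95% confidence interval -0.31 to -0.08; edgeR adjusted p = 0.0149). Its call ended with scaling by total library size (-0.14; adjusted p = 0.0853), with log2(FPKM + 1) (-0.13; 0.161) and with log2(FPKM + 0.1) (-0.14; 0.153). Leaving out siCtrl replicate 2, siCtrl replicate 3 or siNONO replicate 2 ended it too, with adjusted p-values of 0.0510, 0.0589 and 0.0587. The gene also gives rise to a non-muscle form of the kinase, which gene-level counts do not separate.

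Des (chromosome 9), desmin, the muscle intermediate filament protein, was the member that rose. It had 6.58, 6.86 and 6.09 CPM in siNONO libraries 1, 2 and 3, against 5.25, 4.85 and 5.12 CPM in siCtrl libraries 1, 2 and 3. Each siNONO library was higher than each siCtrl library, a log2 fold change of 0.36 ± 0.10 (95% confidence interval 0.14 to 0.58; edgeR adjusted p = 0.0149). Leaving out siNONO replicate 1 ended the call (0.35, with an adjusted p of 0.0510), as did leaving out siNONO replicate 2 (0.31, with 0.0588).

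**Figure D3:**
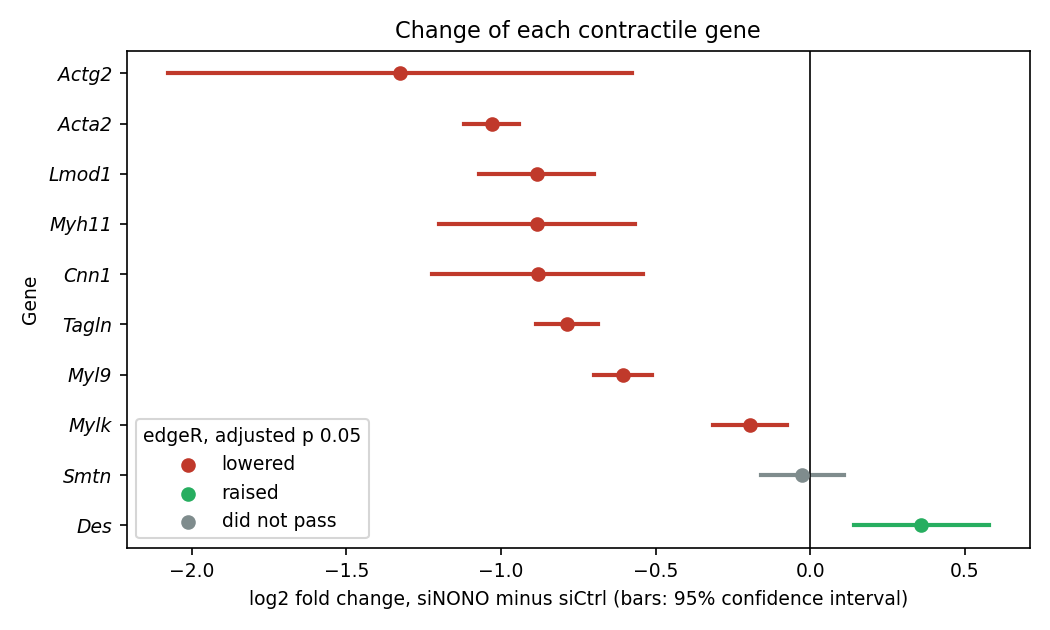
log2 fold change of each contractile gene, siNONO minus siCtrl, with its 95% confidence interval from the edgeR fit; colours give the call. Acta2 stands at -1.03 with a narrow interval, Actg2 at -1.33 with a wide one, and Des at 0.36 is the gene to the right of 0.

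Acta2, Tagln, Myl9 and Mylk, the lowered genes with the most counts, changed their proportions to each other in the 3 ratios taken, while Cnn1, Myh11 and Lmod1 each had a log2 fold change of -0.88. The log2 ratio of Acta2 to Tagln counts, which no library scaling can change, was -0.28, -0.32 and -0.28 in siNONO libraries 1, 2 and 3, against -0.14, -0.07 and 0.08 in siCtrl libraries 1, 2 and 3. Acta2 was thus lower relative to Tagln in every siNONO library (difference -0.25; exact two-sided permutation p = 0.1). The log2 ratio of Tagln to Myl9 was 1.44 ± 0.01 in siNONO and 1.62 ± 0.03 in siCtrl (difference -0.18; exact two-sided permutation p = 0.1), and that of Acta2 to Mylk was 2.50 ± 0.06 in siNONO and 3.34 ± 0.06 in siCtrl (difference -0.84; the same p). These 3 ratios were picked after the values were seen, from members already called, and this p is the smallest the design allows. Their separation is therefore no independent evidence of a change.

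Several members have relatives that serve the cytoskeleton of non-muscle cells, and the fold changes of these relatives were smaller. Within each library the log2 ratio of counts was taken for 11 pairs of a member and a relative, and in all 11 the groups did not overlap (exact two-sided permutation p = 0.1 each, also after Benjamini-Hochberg adjustment over the 11, and the smallest the design allows). The pairs were picked after the values were seen, from members already called, and several members appear more than once. Smtn, Mylk and Actg2 had no pair. The separation is therefore no independent evidence of a change. The ratio of Tagln to Tagln2, transgelin 2, was -1.37 ± 0.07 in siNONO and -0.58 ± 0.05 in siCtrl (SD, n = 3 each; difference -0.79). That of Acta2 to Actb was -3.49 ± 0.05 in siNONO and -2.46 ± 0.07 in siCtrl (difference -1.03). For Myl9 and its close relatives Myl12a and Myl12b the differences were -0.60 and -0.64.

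The remaining pairs followed the same pattern, apart from desmin. Cnn1 was lower against Cnn2 by a log2 ratio difference of -0.75 and against Cnn3 by -0.92. Myh11 was lower against the non-muscle myosin heavy chain genes Myh9 (difference -0.94) and Myh10 (-0.61), and it made up 0.403% ± 0.0563 of the FPKM of these 3 genes in siNONO and 0.735% ± 0.0958 in siCtrl (difference -0.33 percentage points; exact two-sided permutation p = 0.1). Lmod1 was lower against the tropomodulin gene Tmod3 (-1.05). Des went the other way against Vim, vimentin, the intermediate filament protein of fibroblasts: the log2 ratio was -8.82 ± 0.08 in siNONO and -9.38 ± 0.05 in siCtrl (difference 0.55).

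The fit for the relatives themselves called Vim (-0.19), Myh10 (-0.27) and Cnn2 (-0.14) lowered and Actg1 (0.22) and Tmod3 (0.17) raised. The call for Cnn2 was lost when siCtrl replicate 2 (adjusted p = 0.0520) or siNONO replicate 1 (0.0717) was left out, with a replicate block (0.0573), with total library size (0.0955) and on both FPKM scales (0.0813 and 0.0853). That for Tmod3 was lost when siNONO replicate 3 was left out (0.0704). Actb, Tagln2, Cnn3, Myh9, Myl12a and Myl12b did not pass, with log2 fold changes of at most 0.05 in size.

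**Figure D4:**
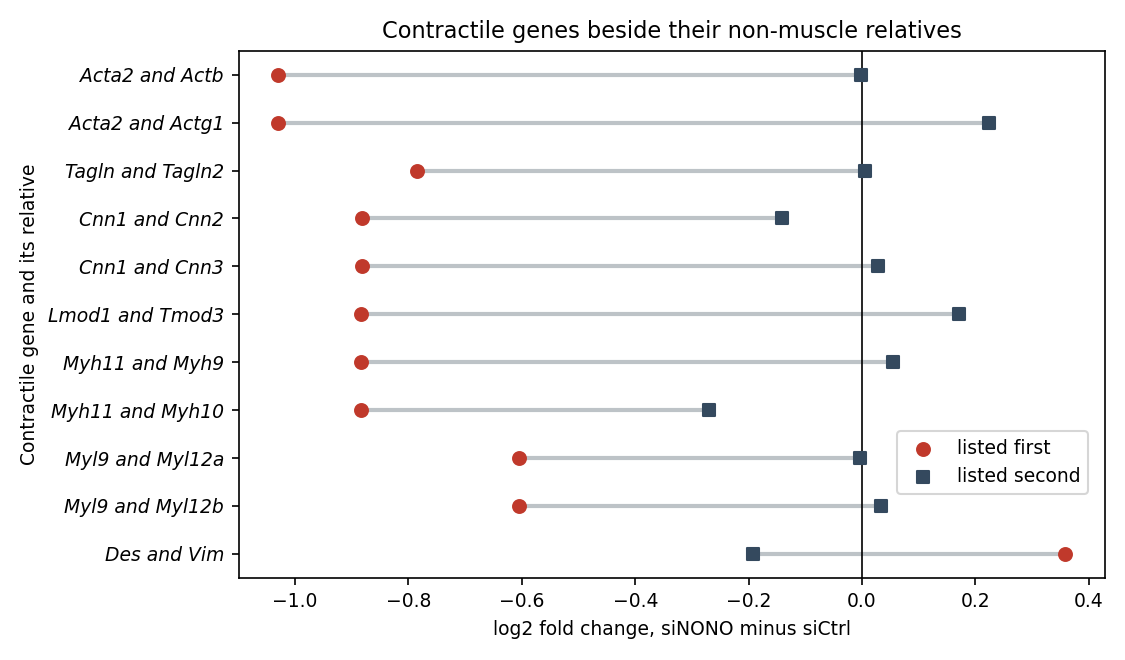
log2 fold change, siNONO minus siCtrl, of the contractile genes paired with a relative (circle, named first) and of a relative used by non-muscle cells (square, named second), from the edgeR fit. Among these pairs the circles other than that of Des lie at -0.61 or lower, while the squares lie between -0.27 and 0.22.

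Other contractile, actin-binding and related genes were more often lowered than raised, with smaller fold changes at the median. Of 43 further genes, mostly for contractile and actin-binding proteins, 40 were tested, with a median log2 fold change of -0.11. Of these, 16 were lowered and 5 raised, beside 15.9% lowered and 16.2% raised over all tested genes. With scaling by total library size 12 were lowered and 6 raised. The list included non-muscle relatives described above, namely Tagln2, Cnn2, Cnn3, Myh9, Myh10, Myl12a, Myl12b and Tmod3. Its smaller median is therefore not separate from the contrast with those relatives. The lowered genes with the largest change were Kcnmb1, the smooth muscle subunit of a calcium-activated potassium channel, and Fhl1, a LIM-domain protein of muscle. Kcnmb1 had 0.652 ± 0.0967 CPM in siNONO and 1.42 ± 0.426 CPM in siCtrl (log2 fold change -1.09 ± 0.28; edgeR adjusted p = 0.00795), and Fhl1 93.1 ± 5.35 CPM in siNONO and 132 ± 10.4 CPM in siCtrl (-0.50 ± 0.06; edgeR adjusted p = 1.99e-05). The values of Kcnmb1 rested on 17 to 25 counts per siNONO library and 30 to 47 per siCtrl library. The raised genes with the largest change were the tropomyosin gene Tpm3 (0.49 ± 0.04; edgeR adjusted p = 1.21e-06) and Cald1, caldesmon, which binds actin and myosin (0.36 ± 0.04; edgeR adjusted p = 3.12e-05). The log2 ratio of Acta2 to Cald1 counts was -0.64 ± 0.04 in siNONO and 0.75 ± 0.05 in siCtrl. Counts are not corrected for gene length, so this ratio does not rank the levels of these genes. Per length Acta2 was above Cald1 in both groups, at 251 against 109 FPKM in siNONO and 495 against 81.8 FPKM in siCtrl.

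Genes for known regulators of the contractile program were divided evenly between lowered and raised, as were all tested genes. Of 47 such genes 44 were tested, 10 were lowered and 10 raised, with a median log2 fold change of -0.04, beside 15.9% lowered and 16.2% raised over all tested genes. With scaling by total library size 7 were lowered and 15 raised. Srf, the transcription factor at the centre of the program, was modestly lowered, with 47.3 ± 0.429 CPM in siNONO and 56.8 ± 1.78 CPM in siCtrl (log2 fold change -0.27 ± 0.04; edgeR adjusted p = 0.000405). The genes of its coactivators did not pass: Mrtfa had -0.10 ± 0.05 (edgeR adjusted p = 0.174) and Mrtfb 0.08 ± 0.20 (adjusted p = 0.80). Myocd, myocardin, was too low to test, with 0 to 5 counts per siNONO library and 0 to 3 per siCtrl library.

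The lowered regulators with the largest change were Klf15, a Kruppel-like factor (-0.52 ± 0.06; edgeR adjusted p = 2.63e-05), and Tgfb3, a TGF-beta ligand (-0.40 ± 0.06; edgeR adjusted p = 0.00014). The raised ones were Scx, scleraxis, a transcription factor of tendon and fibroblasts (0.93 ± 0.21; edgeR adjusted p = 0.00402), and Rac1, a GTPase that remodels actin (0.59 ± 0.04; edgeR adjusted p = 1.85e-07). Klf4, known as a repressor of smooth muscle genes, was picked outside the naming rule with its values already known. It had 179 ± 5.05 CPM in siNONO and 121 ± 1.95 CPM in siCtrl (0.56 ± 0.04, edgeR adjusted p = 3.34e-07). Its part in the change of the contractile genes was not tested.

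**Figure D5:**
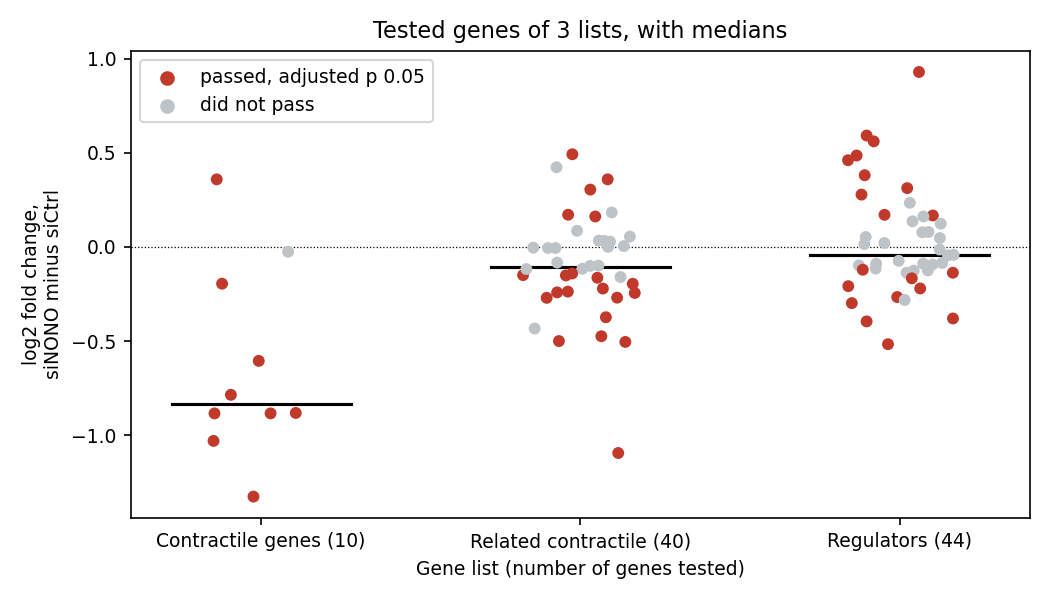
log2 fold change, siNONO minus siCtrl, of every tested gene among the 10 contractile genes, the 40 related contractile genes and the 44 regulators; red points passed the test and black lines are medians. The medians are -0.83, -0.11 and -0.04.

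The genes whose values across the 6 libraries were most like those of Acta2 came from several functional classes. Likeness was the root mean square distance between profiles of log2 CPM centred on each gene's mean, over 10075 genes with a symbol and a mean of at least 5 CPM. The nearest were Gucy1b1 (distance 0.04), a subunit of the nitric oxide receptor guanylate cyclase, and Rgs2 (0.06), which restrains G protein signalling. Next came the small matrix proteoglycan gene Aspn (0.06) and the transporter gene Slc16a14 (0.07). These 4 genes were all lowered, with log2 fold changes from -1.12 to -0.97. The distance keeps the size of changes, so fold changes close to that of Acta2 follow from the choice. Among the members Lmod1 (0.10), Tagln (0.14), Myh11 (0.17) and Cnn1 (0.18) were nearest to Acta2, and Smtn (0.51) and Des (0.70) farthest. Rgs2 had 31.1, 30.7 and 30.0 CPM in siNONO libraries 1, 2 and 3, against 64.6, 68.1 and 66.4 CPM in siCtrl libraries 1, 2 and 3. The genes nearest to Mylk were Cdk8, Kdm8 and Rnf149 (0.02 to 0.03), whose log2 fold changes were -0.22, -0.19 and -0.18, again close by choice.

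Markers of other cell types were measured beside the contractile genes, and some of them were also lower in siNONO. Over all tested genes 15.9% were lowered and 16.2% raised. For pericytes and vascular smooth muscle 12 markers were listed, of which 9 were tested. Kcnmb1 and Itga8 were also on the list of related contractile genes, so their calls are the same ones as there. The lowered ones were Kcnmb1 (-1.09), the proteoglycan gene Cspg4 (-0.58) and Kcnj8 (-0.28). Itga8 (0.16) was raised, a call that was lost when siNONO replicate 1 (adjusted p = 0.0999) or 3 (0.0694) was left out and with a replicate block (0.0501). Their summed level was 594 to 625 CPM in siNONO and 616 to 624 CPM in siCtrl, most of it from Pdgfrb and Itga8. The other 5 tested, Abcc9, Mcam, Notch3, Pdgfrb and Pln, did not pass. Of these, Abcc9 had 20.1 ± 1.35 CPM in siNONO and 20.2 ± 2.45 CPM in siCtrl, and Notch3 4.87 ± 0.229 and 5.91 ± 0.616 CPM. The markers Rgs5 and Higd1b and the smooth muscle gene Casq2, which were not tested, had 0 or 1 count in each library. Of 12 cardiomyocyte markers, 8 were in the table, and their sum was 108 to 117 CPM in siNONO and 143 to 159 CPM in siCtrl, with no overlap between groups. Nearly all of it was Tnnt2 (111 ± 4.55 CPM in siNONO and 152 ± 8.37 CPM in siCtrl; log2 fold change -0.45 ± 0.05). Of the 2 tested, Tnnt2 was lowered and Tnni3 did not pass (-0.49 ± 0.46; edgeR adjusted p = 0.449). Tnni3 had 5, 17 and 5 counts in siNONO libraries 1, 2 and 3, and 12, 11 and 11 in siCtrl libraries 1, 2 and 3. Myh6, Actc1, Nppb, Ryr2, Ttn and Actn2 had 0 to 5 counts per library. The 8 endothelial markers summed to 20.1 to 21.2 CPM in siNONO and 17.6 to 19.0 CPM in siCtrl. Most of it was Tek (16.3 ± 0.344 CPM in siNONO and 13.9 ± 1.24 CPM in siCtrl). Of the 6 tested, Tek was raised (0.24, edgeR adjusted p = 0.025) and the other 5 did not pass. The 8 macrophage markers summed to 1237 to 1334 CPM in siNONO and 1294 to 1482 CPM in siCtrl, with 3 lowered and the other 5 not passing. The lowered ones were Adgre1 (-0.50; edgeR adjusted p = 2.61e-05), Csf1r (-0.30) and Cd14 (-0.22). The part of these cell types in the change of the contractile genes was not tested.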

How the data were processed

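RNA was sequenced from poly(A)-selected, stranded libraries of 3 siNONO and 3 siCtrl samples, grouped by title. The submitters' processing notes name HISAT2, edgeR and build mRatBN7.2, per the labels; no source used here gives versions, the counting tool or its strand setting. The deposited table of raw read counts per gene was used for all tests, and the FPKM values, scaled by the authors for gene length and library size, for levels between genes and for alternatives. There were 0 columns of other samples.

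Counts were filtered (filterByExpr), scaled by TMM and compared, siNONO against siCtrl, with the quasi-likelihood test of edgeR 4.0.16 in R 4.3.3, with 4 residual degrees of freedom. The p-values and intervals used the total degrees of freedom, which add to these a prior estimated over all genes. SE is the log2 fold change over the square root of F, and SD is over 3 libraries. Within-library shares and ratios were compared with an exact permutation test. Replicates were not copies (chi-square per degree of freedom at least 3.18). Alternatives used limma 3.58.1 and DESeq2 1.42.0. The fit was tested on simulated counts, in which far fewer genes changed than were called here.

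The members, lists and rules were chosen with earlier results of these data known. The naming rule took all members, Nono, Srf and its coactivators, up to 2 rises and 2 falls per list, and the 5 profiles nearest to Acta2 and 3 nearest to Mylk; 1 of those nearest to Acta2 is not reported here. The relatives, the ratios between members and the neighbours were added after the values were seen. Gene names for neighbours came from RefSeq assembly GRCr8, which differs from the build of the files, so no coordinates are given; all 10 members matched. Plots were made in Python 3.11.15 with matplotlib 3.10.9.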

Additional observations from a re-analysis of the deposited data

How the results depend on the processing

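Acta2, Tagln, Cnn1, Myh11, Lmod1 and Myl9 were lowered in all 18 alternatives, with log2 fold changes of -1.05 to -0.98 for Acta2 and -0.83 to -0.73 for Tagln. Across them 6 to 8 members were lowered. The count of raised members (Des) was 0 at a threshold of 0.01 and 0 to 1 when leaving out each library. At 0.01 the counts over all genes were 1428 raised and 1424 lowered, and 3 related contractile genes were raised; without 1 library that count was 3 to 6. With log2(FPKM + 1), whose pseudocount is above or near the levels of Actg2, Myh11 and Cnn1, these had -0.27, -0.30 and -0.54. With CPM of at least 1 in 3 libraries Actg2 was not tested. With a replicate block 8 members were lowered and 1 raised, and 1894 genes were raised and 1863 lowered in all. The libraries share only a number: correlations of deviations from the group means were -0.05, -0.09 and -0.01 for numbers 1, 2 and 3, and for no number did both libraries correlate best with each other. Under 30 counts per library limit Actg2.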

Other observations

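The genes next to the members on the chromosome changed less in size than most members did. Of 18 tested protein-coding neighbours, 1 was raised and 6 were lowered, with log2 fold changes from -0.26 to 0.23, and 32.1% of all tested genes were called. Acta2 lies between Stambpl1, a deubiquitinase gene (-0.08 ± 0.06; edgeR adjusted p = 0.309), and Fas, the death receptor gene, which had 37.5 CPM in siNONO and 32.04 CPM in siCtrl (0.23 ± 0.06; edgeR adjusted p = 0.00648). Tagln lies between Pcsk7, a proprotein convertase gene (0.06 ± 0.06; edgeR adjusted p = 0.428), and Sidt2, a lysosomal membrane protein gene (-0.21 ± 0.04; edgeR adjusted p = 0.000753). Long noncoding RNA genes overlap 3 members, Lmod1, Mylk and Des. Those with counts were low beside their member: the one in Lmod1 had 0.832 CPM in siNONO and 0.854 CPM in siCtrl, one in Mylk 1.47 CPM in siNONO and 1.13 CPM in siCtrl, and the one in Des 0.166 CPM in siNONO and 0.102 CPM in siCtrl. Whether the counting used strand is not given, so reads of such a pair cannot be told apart.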
